A study of Caenorhabditis elegans with 2 samples.

Results

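On the autosomes of larvae of Caenorhabditis elegans in their first stage (L1), 269 chromatin immunoprecipitation (ChIP-seq) peaks of the tagged nuclear hormone receptor NHR-90 had their summit inside an intron and away from every gene start. They were taken from the 4133 peaks of the authors' optimal list, of which 3256 were autosomal, so that they made up 8.26% of the autosomal peaks. A peak was included when its summit lay inside a protein-coding transcript, in no annotated exon, and in no 5′ end window, which covers the 1000 bp before and the 200 bp after the start of any transcript that is not from a piRNA gene (Ensembl annotation of WBcel235, coordinates in ce11). Chromosome I had 42 of them, II had 62, III had 65, IV had 60 and V had 40. Another 88 peaks met the same location rule on X, 467 autosomal peaks were intergenic and away from 5′ ends, 101 were in exons away from 5′ ends, and 2413 were in the 5′ end windows.

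The 2 samples were biological replicates of 1 group of hermaphrodites of strain OP483, of genotype unc-119(tm4063) III with the transgene insertion wgIs483, which makes NHR-90 with GFP and FLAG at its C-terminus. The animals were collected as whole L1 larvae 6 h after they had been synchronised by hatching into starvation after bleaching, and an antibody against GFP was used on sonicated chromatin. The group is a single transgenic line, whole animals mix all tissues, and neither an untagged strain nor the control library is analysed here. Depth is unknown, since only peaks and no read counts are given, and with 1 group there is no test between conditions. Shares, densities and medians are given with exact 95% intervals, which cover counting error only and treat peaks as independent.

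Nuclear hormone receptors are transcription factors with a zinc-finger DNA-binding domain and a ligand-binding domain, and the family is greatly expanded in nematodes. Many known receptors of the family bind DNA at half-sites related to AGGTCA, singly or in pairs. Most introns of this worm are very short, while the long ones, often near the start of a gene, are known to carry enhancers and internal promoters of shorter transcripts. A ChIP-seq peak marks where tagged protein was recovered with DNA, directly or through other proteins, and does not by itself show regulation of the surrounding gene.

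Windows of 101 bp centred on the summit are printed for 12 of the peaks, because the matches they hold recur through the results: sites of the zinc-finger protein EOR-1 and GAGA repeats in the first 6, the palindromic E-box in the other 6, and the only printed nuclear receptor half-site in the last. All are on the forward strand of ce11. Capitals mark matches on either strand to the GAGA repeat GAGAGA, the EOR-1 site GAGACGCAG, the E-box CACGTG or the half-site AGGTCA, so that a match on the reverse strand appears as its complement read backwards.
epg-9, chrIV:2602122-2602222: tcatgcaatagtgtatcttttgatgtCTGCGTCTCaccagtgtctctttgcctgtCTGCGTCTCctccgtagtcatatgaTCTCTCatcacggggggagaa
Y111B2A.12, chrIII:12612581-12612681: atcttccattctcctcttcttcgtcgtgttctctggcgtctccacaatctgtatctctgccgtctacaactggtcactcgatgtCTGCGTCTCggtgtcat
Y43F8B.2, chrV:19529355-19529455: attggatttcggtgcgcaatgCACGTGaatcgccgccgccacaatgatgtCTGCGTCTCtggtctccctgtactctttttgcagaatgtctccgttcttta
pqn-41, chrIII:1926545-1926645: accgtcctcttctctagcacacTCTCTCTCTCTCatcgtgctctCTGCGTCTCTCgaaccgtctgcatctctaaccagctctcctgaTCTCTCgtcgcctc
mnk-1, chrII:10552100-10552200: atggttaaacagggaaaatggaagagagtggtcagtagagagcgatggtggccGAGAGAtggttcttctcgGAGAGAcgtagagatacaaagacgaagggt
daf-5, chrII:14050584-14050684: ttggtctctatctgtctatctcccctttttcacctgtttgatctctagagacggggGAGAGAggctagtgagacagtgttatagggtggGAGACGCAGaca
D2023.3, chrV:11802571-11802671: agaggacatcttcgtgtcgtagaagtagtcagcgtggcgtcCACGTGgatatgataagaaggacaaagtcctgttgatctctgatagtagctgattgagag
aakg-1, chrIII:12568398-12568498: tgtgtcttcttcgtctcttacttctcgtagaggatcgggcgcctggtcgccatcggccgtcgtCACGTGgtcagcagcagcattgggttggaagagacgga
fkh-7, chrIV:5591255-5591355: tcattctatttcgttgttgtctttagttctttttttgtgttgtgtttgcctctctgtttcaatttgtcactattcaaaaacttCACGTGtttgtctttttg
hlh-30, chrIV:4026076-4026176: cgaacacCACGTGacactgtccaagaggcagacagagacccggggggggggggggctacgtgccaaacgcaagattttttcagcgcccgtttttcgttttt
spsb-1, chrII:15205448-15205548: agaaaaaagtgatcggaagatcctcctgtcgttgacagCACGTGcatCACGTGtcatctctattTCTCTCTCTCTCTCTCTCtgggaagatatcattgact
pkg-2, chrIV:8526276-8526376: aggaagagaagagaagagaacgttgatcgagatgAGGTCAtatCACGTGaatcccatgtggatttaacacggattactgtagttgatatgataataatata

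Intronic candidates passed into the optimal list less often than candidates as a whole. The pooled list of candidate peaks and background held 4619 candidates under the same location rule on the autosomes, and the 269 in the optimal list were 5.82% of these (interval 5.17 to 6.54), against 13.8% of all 30000 pooled candidates. The share was 20.7% for autosomal 5′ end windows, 12.2% for autosomal intergenic DNA away from 5′ ends, 7.84% for introns of X under the same rule and 2.49% for autosomal exons. Autosomal introns and X introns had overlapping intervals (6.34 to 9.57 on X). For their length, autosomal introns held few peaks: 13.2 per Mb of the 20.4 Mb that met the location rule (11.6 to 14.8), against 33.5 per Mb of autosomal intergenic DNA (30.6 to 36.7), 83.7 per Mb of 5′ end windows, 22.7 per Mb of X introns (18.2 to 28.0) and 5.48 per Mb of exons. The strongest 4133 peaks of replicate 1 alone gave 13.6 per Mb and those of replicate 2 gave 14.4. Among the autosomes the density was highest on II, at 18.1 per Mb (13.9 to 23.2), and lowest on I, at 9.09 (6.55 to 12.3), with III at 15.8, IV at 14.7 and V at 9.51. The neighbours in this order had overlapping intervals.

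The intronic peaks were of middling signal, a value the authors assigned on an unstated scale and which is compared only within a list. Their median was 117.0 (109.5 to 122.3), with quartiles of 88.0 and 151.5 and a range from 69.7 to 994.9. All optimal peaks together had a median of 123.6, autosomal 5′ end windows 134.2 (129.0 to 139.3), autosomal intergenic peaks 108.0 (101.4 to 114.5) and X introns 101.8 (93.0 to 118.0). The intronic peaks thus sat below the window peaks beyond their intervals, and overlapped the intervals of both intergenic and X intronic peaks. Of the 100 strongest optimal peaks 3 were autosomal intronic, and 46 of the 269 (17.1%) were among the strongest 1000, against 24.2% of all optimal peaks. A signal above 200 was reached by 48.

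**Figure D1:**
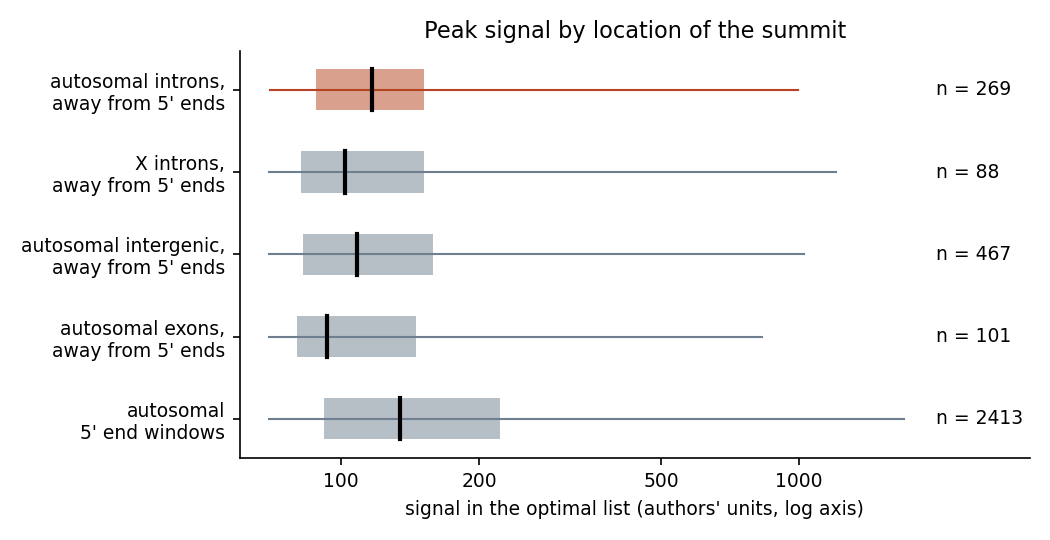
Signal of optimal peaks (authors' units, log axis) by location of the summit: the black line is the median, the box the quartiles and the thin line the full range, with the number of peaks at the right. The autosomal intronic peaks (median 117.0) sit below the 5′ end windows (134.2), and all 5 groups start near the lowest signal in the list.

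The intronic peaks were found in the replicates about as often as optimal peaks in general. All 269 overlapped a candidate peak of replicate 1 and one of replicate 2 by 1 bp or more, as did all 4133 optimal peaks in replicate 1 and 4121 in replicate 2. Of the 269, 236 (87.7%) overlapped one of the strongest 4133 of replicate 1, against 89.0% of all optimal peaks, and 240 (89.2%) one of the strongest 4133 of replicate 2, against 88.5%. In both replicates at once this was so for 210, or 78.1% (72.6 to 82.9), close to the 78.7% of all optimal peaks. The 3 peaks among the strongest 4133 of neither replicate lay in Y111B2A.12, orai-1 and eppl-1, with optimal signals of 71.3, 70.4 and 69.7. The median rank was 2260 in replicate 1 and 2275 in replicate 2, and 122 of the 269 ranked better in replicate 1. Across the 269 peaks the Spearman correlation of the replicates' signals was 0.68, against 0.80 over all optimal peaks matched in both. It was 0.65 for X intronic peaks and 0.70 for autosomal intergenic peaks. These points share the peak calls and both replicates went into the making of the optimal list. None of these values is therefore independent evidence of reproducibility. In 4 places neighbouring peaks of the list overlapped each other and were matched to the same replicate peaks, in daf-5, spsb-1, nhr-46 and W05H12.1, and each such pair counts as 2 of the 269.

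**Figure D2:**
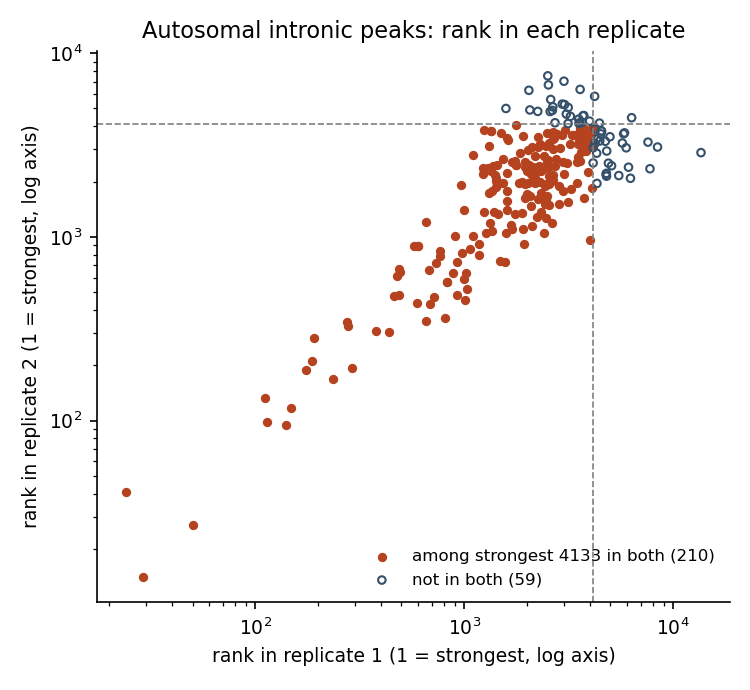
Rank of each of the 269 autosomal intronic peaks in replicate 1 (horizontal) and replicate 2 (vertical), on log axes with 1 the strongest; dashed lines mark rank 4133. Filled points (210) are within that rank in both replicates and open points (59) are not; the strongest peaks rank alike in both and the spread widens toward the weak ones.

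Long introns held far more of the peaks than their length would give at an even density. Introns over 5000 bp had 113 peaks, 42.0% of all, in 11.2% of the eligible bases, which is 49.2 per Mb (40.5 to 59.1). Introns of over 2000 and up to 5000 bp had 67 peaks, or 21.8 per Mb (16.9 to 27.7). The 3 shorter bands had 6.90 per Mb for over 1000 and up to 2000 bp (4.62 to 9.91), 4.89 for over 500 and up to 1000 bp (3.13 to 7.27) and 6.04 for up to 500 bp (4.23 to 8.37). The last 3 intervals overlapped one another and lay below those of both longer bands. In the strongest peaks of each replicate alone, introns over 5000 bp had 50.5 per Mb in replicate 1 and 51.8 in replicate 2, and introns up to 500 bp had 6.72 and 6.21. Without the 19 genes that held 3 or more peaks, whose bases were still counted, introns over 5000 bp had 27.0 per Mb. Those of over 2000 and up to 5000 bp had 18.5. These genes were picked for their number of peaks, so both values were bound to be lower.

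The share of candidates that reached the optimal list rose in the same order, from 2.48% in introns up to 500 bp and 2.33% in the next band to 4.05%, 9.81% and 15.3% in introns over 5000 bp. The median signal of the peaks differed little between bands, from 108.2 in the shortest introns to 118.9 in those of over 2000 and up to 5000 bp. Introns of X under the same rule had 18.5, 14.3, 19.7, 37.1 and 39.5 peaks per Mb from the shortest to the longest band. In introns up to 500 bp the X interval, 12 to 27.3, lay above the autosomal one, and in introns over 5000 bp it was 24.8 to 59.8 and overlapped it.

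**Figure D3:**
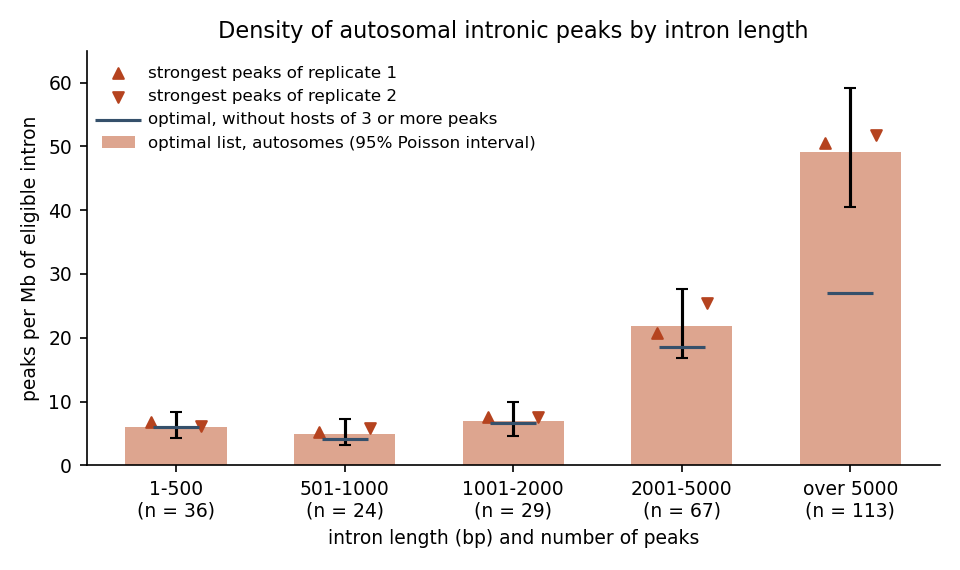
Peaks per Mb of eligible autosomal intron by intron length: bars are the optimal list with 95% Poisson intervals, triangles the strongest 4133 peaks of each replicate, and short lines the optimal list without the 19 genes that held 3 or more peaks. The density is 6.04 in the shortest introns and 49.2 in introns over 5000 bp, where it is 27.0 without those genes.

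The intron around a summit had a median length of 3584 bp (3068 to 4668) and a range from 47 to 21046 bp, against a median of 70 bp over the 90275 annotated introns of autosomal coding genes and of 923 bp over eligible intron bases. First introns held 150 of the 269 peaks, or 55.8% (49.6 to 61.8), and 27.3% of the eligible bases. Counted per length, first introns had 26.9 peaks per Mb (22.8 to 31.5) and other introns 8.01 (6.63 to 9.58). First introns are longer, and within length bands the values were 58.7 for first and 36.9 for other introns over 5000 bp, 38.6 and 11.9 for over 2000 and up to 5000 bp, 11.6 and 5.37 for over 1000 and up to 2000 bp, 5.22 and 4.79 for over 500 and up to 1000 bp, and 12.5 and 4.80 for up to 500 bp. A gene with several transcripts can have an intron that is first in one and later in another, and 98 peaks (36.4%) lay in an intron that was first in every transcript around them, against 19.3% of the eligible bases. Cut into 5 equal stretches from its 5′ to its 3′ splice site, the intron held 40, 73, 76, 57 and 23 peaks, so the last stretch had the fewest. The location rule leaves out bases near 5′ ends, and eligible bases per stretch were not counted. These counts therefore cannot show a preference for a part of the intron. The median distance to the nearest splice site was 1081 bp, 23 summits lay within 100 bp of one, and in 213 (79.2%) the whole peak held no annotated exon base.

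Density varied less with distance from a gene start than with intron length. The nearest transcript 5′ end was a median of 1538 bp away (1337 to 1691), from 207 to 7050 bp, and belonged to the host gene itself in 201 of 269 cases, to another coding gene in 25 and to a noncoding gene or pseudogene in 43. Density was 13.8 per Mb at 500 bp or less from a 5′ end (9.48 to 19.4), 9.21 up to 1000 bp, 15.3 up to 2000 bp, 13.4 up to 5000 bp and 10.7 beyond that (5.87 to 18.0). The host's own most upstream 5′ end was a median of 3506 bp away. The 71 hosts that also had an optimal peak in a 5′ end window of their own were 35.5% of 200 hosts (28.9 to 42.6), against 13.7% of all autosomal coding genes with eligible intron. Hosts have more intron than other genes, a median of 4076 eligible bases against 611, and the part of gene length in this difference was not tested. Of the peaks, 48 lay within 1000 bp of another optimal summit.

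The strongest of the peaks was in an intron of epg-9, an autophagy gene whose product is the worm homologue of Atg101. It spans chrIV:2602008-2602364, lies 1031 bp downstream of the gene's 5′ end, and had a signal of 994.9 in the optimal list, 487.9 in replicate 1 and 509.3 in replicate 2. It ranked 20 in the optimal list, 29 in replicate 1 and 14 in replicate 2, and its window, printed above, held 2 EOR-1 sites and a GAGA repeat. The second, in Y56A3A.7 at chrIII:11946401-11946700, had 913.9 in the optimal list, 512.7 in replicate 1 and 398.1 in replicate 2. It lay in a short intron of 247 bp and its window held none of the 4 main motifs. The third, in Y111B2A.12 at chrIII:12612427-12612866, had 808.3, with 402.0 and 441.1 in replicates 1 and 2, and lay in an intron of 7076 bp.

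The remaining 12 of the 15 strongest were weaker than these 3, with optimal signals from 364.6 to 594.6. Y43F8B.2 (chrV:19529239-19529550) had 299.6 in replicate 1 and 296.8 in replicate 2, and pqn-41, a gene for a polyglutamine protein that acts in the death of the linker cell, held 3 of the 15. T28F4.1 had 272.0 and 275.6, with its summit 264 bp downstream of the 5′ end of T28F4.7. Replicate signals were 243.9 and 215.3 for mnk-1, the worm homologue of the MAP kinase-interacting kinases, and 224.9 and 238.2 for nhr-19, a nuclear hormone receptor gene. Those for Y48C3A.5 were 205.8 and 221.9, for gei-4 242.7 and 192.5, and for pkg-2, which encodes a cGMP-dependent protein kinase, 212.2 and 176.9. The list ended with Y57G11C.22 (211.9 and 181.7) and zfp-1, the homologue of the chromatin protein AF10 (183.2 and 183.6). Each of the 15 ranked 379 or better in both replicates.

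Most genes with a peak held only 1. The 269 peaks lay in introns of 202 genes, 1.40% of the 14477 autosomal coding genes with eligible intron, and 2 of the peaks lay in introns of 2 genes. That share is bound to be small, because there are far fewer peaks than genes. With each peak given to 1 gene there were 200 hosts, of which 159 held 1 peak, 41 held 2 or more (110 peaks in all) and 19 held 3 or more (66 peaks). The share of genes that were hosts rose with the amount of eligible intron, from 0.141% of genes with up to 500 bp and 0.877% with over 500 and up to 2000 bp to 3.23% up to 5000 bp, 6.78% up to 10000 bp and 16.9% (12.5 to 22.0) above that. Counted by intron, 215 introns held a peak and 34 held 2 or more, with neighbouring summits in the same intron a median of 1393 bp apart, from 201 to 8718 bp.

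The gene pkg-2 held 5 peaks in a single intron of 6824 bp, with optimal signals of 142.4, 394.1, 149.5, 255.3 and 143.6 in the order of their position over 4475 bp. Replicate 1 had 82.8, 212.2, 85.9, 131.5 and 62.7 at them and replicate 2 had 59.8, 176.9, 70.9, 129.4 and 93.6, so that the same pair was highest in both. The first of them held both an AGGTCA half-site and an E-box. The gene daf-5, which encodes a Ski/Sno-like protein of the TGF-beta pathway for dauer formation, held 5 as well, all in a first intron of 14446 bp. Its optimal signals were 251.3, 96.3, 126.8, 90.5 and 243.5 in the order of the chromosome, over 10231 bp, and the first 2 belong to overlapping peaks that match the same replicate peaks of 139.3 and 108.6. At the other 3 the signals in replicates 1 and 2 were 79.1 and 40.0, 51.0 and 42.0, and 101.4 and 145.9.

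The 4 peaks of pqn-41 were the strongest group, with optimal signals of 565.1, 358.1, 573.0 and 478.3. They lay along an intron of 7776 bp, which was first in some of the transcripts around them but not in all. Replicate 1 had 300.5, 169.0, 279.4 and 254.5, and replicate 2 had 258.7, 185.3, 300.9 and 225.2, and the second was lowest in both. In fkh-7, a forkhead factor gene, the 4 peaks spread over 18151 bp with optimal signals of 94.2, 281.6, 167.7 and 136.6, and the second was highest in replicate 1 (127.0) and in replicate 2 (153.9). The gene hlh-30, for the worm homologue of TFEB, a regulator of lysosome and autophagy genes, held 4 weaker peaks of 163.9, 111.5, 102.9 and 98.6, with 46.9 to 73.6 in replicate 1 and 50.4 to 92.7 in replicate 2. Those of rpoa-1, a subunit gene of RNA polymerase I, had 208.0, 97.0, 75.9 and 72.6. In spsb-1, which encodes a SPRY-domain SOCS-box protein, they had 135.3, 114.0, 84.3 and 70.2, and the weakest had 15.8 in replicate 1, at rank 13570, and 48.5 in replicate 2.

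**Figure D4:**
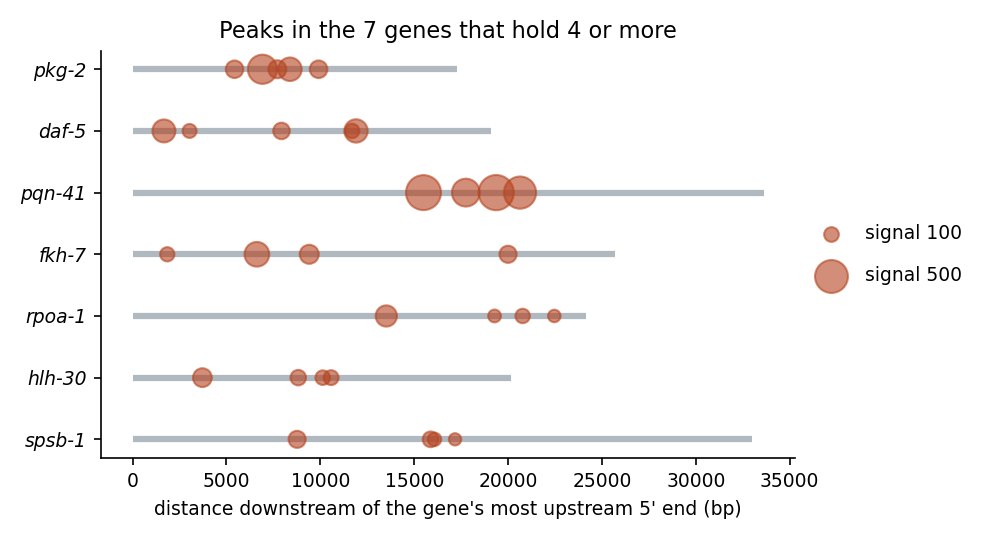
Position of each peak along the 7 genes that held 4 or more, as distance downstream of the gene's most upstream annotated 5′ end (bp); grey bars are the genes and the area of a point is proportional to its signal. The 4 peaks of pqn-41 (358.1 to 573.0) fall within 5141 bp, while those of fkh-7 spread over 18151 bp.

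With 3 peaks each followed Y111B2A.12, mnk-1, nhr-19, Y48C3A.5, zfp-1, W05H12.1, nhr-46, psd-1, nadk-2, ifbp-1, dkf-2 and lit-1. Their highest signals ran from 105.4 in lit-1, a Nemo-like kinase gene, to 808.3 in Y111B2A.12. Of these, psd-1 encodes a phosphatidylserine decarboxylase (highest signal 238.0), nadk-2 an NAD kinase (126.7) and dkf-2 a protein kinase D (112.0). For their eligible intron, W05H12.1 had the most peaks, at 0.954 per kb, 2 of them overlapping, and dkf-2 the fewest, at 0.0947.

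Genes were grouped by role in lists that are not complete, and the counts that follow are for listed genes only. Genes for nuclear hormone receptors, to which NHR-90 belongs, had 6 hosts among 241 with eligible autosomal intron. This was 2.49% (0.919 to 5.34), an interval that held the 1.40% of all genes. Their 10 peaks made 38.7 per Mb (18.6 to 71.2), where all genes together had 12.9 (11.4 to 14.6). The 2 intervals do not overlap, but they treat peaks as independent, and nhr-19 and nhr-46 held 3 peaks each. The part of intron length in this density was not tested. The strongest were in nhr-19, with signals of 463.7, 290.4 and 158.2, and in nhr-46, with 252.4, 117.2 and 98.4, of which the first 2 overlap. A single peak each was in nhr-34 (174.1), nhr-21 (155.0), nhr-85 (138.3) and nhr-23, a receptor needed for moulting (135.9). The peak of nhr-34 had 85.0 in replicate 1 and 97.6 in replicate 2, and that of nhr-23 had 63.0 and 78.7.

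Other sequence-specific transcription factor genes had 13 hosts among 136, or 9.56% (5.19 to 15.8), with 63.0 peaks per Mb (39.0 to 96.2). Among the listed genes, the strongest were in klf-1, a Krüppel-like factor (287.6, with 158.9 and 135.0 in replicates 1 and 2), fkh-7, lin-1, an ETS factor of vulval development (210.9, with 99.0 and 110.9), and hlh-30. The FoxO gene daf-16, the main transcription factor downstream of the insulin receptor, had 147.8 and 81.1. Homeobox genes had no host among 67, which allows a share of up to 4.48%, or 24.2 peaks per Mb. That limit is above the 1.40% of all genes, so fewer peaks than elsewhere could not be shown in this group.

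Genes of the Wnt, TGF-beta, Notch, EGF and insulin pathways had 8 hosts among 72, or 11.1% (4.92 to 20.7), with 58.2 peaks per Mb (33.9 to 93.2). Components of dauer TGF-beta signalling had the strongest, daf-5 and the Smad gene daf-14, whose peaks of 229.6 and 123.4 had 121.9 and 57.6 in replicate 1 and 112.8 and 71.1 in replicate 2. The Notch effector gene lag-1 had 218.6 and 208.8, and the TOR kinase gene let-363 had 216.7, with 104.9 in replicate 1 and 114.8 in replicate 2. The others were the Frizzled gene lin-17 (129.0), lit-1 (105.4), the ERK gene mpk-1 (95.8) and the insulin receptor gene daf-2 (79.7 and 70.1), which had the weakest. Both of these groups have more eligible intron per gene than all genes, with medians of 1172 bp for the other transcription factors and 1929 bp for pathway genes against 611. Density rose with intron length over all genes, and the part of that in the values of the groups was not tested.

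In 4 other groups, as in the lipid and autophagy genes below, the share of hosts could not be told from that of all genes (1.40%). All genes together had 12.9 peaks per Mb. Ion channel genes had 1 host among 118, or 0.847% (0.0215 to 4.63), the potassium channel gene egl-23 (71.9), and 2.45 peaks per Mb (0.0621 to 13.7) with a median of 1936 eligible bases. Transmitter receptor genes had 1 among 145, or 0.690% (0.0175 to 3.78), the glutamate receptor gene glr-2 (90.7), and 2.22 per Mb (0.0563 to 12.4). Muscle and cytoskeleton genes had 1 among 88, or 1.14% (0.0288 to 6.17), the dystrophin gene dys-1 (110.1), and 3.26 per Mb (0.0826 to 18.2). Adhesion and guidance genes, with a median of 3471 eligible intron bases per gene, had 3 hosts among 65, or 4.62% (0.962 to 12.9), and 7.17 peaks per Mb (1.48 to 21.0). The hosts were mup-4, whose product helps anchor muscle to the cuticle through the epidermis (151.5), zig-11 (84.1) and the cadherin gene hmr-1 (73.1). All 4 intervals of the share held 1.40%, and all 4 intervals of density overlapped that of all genes, 11.4 to 14.6. The density interval of transmitter receptor genes nevertheless ended below 12.9 per Mb, so their density was low on 1 peak. Those of ion channel, muscle and cytoskeleton, and adhesion and guidance genes held 12.9.

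Listed lipid and detoxification genes had 6 hosts among 290, or 2.07% (0.763 to 4.45), and 20.9 peaks per Mb (7.68 to 45.5). Both intervals held the values of all genes. The listed hosts were lips-10 (126.6), the fatty acid synthase gene fasn-1 (120.8, with 55.1 in replicate 1 and 74.7 in replicate 2), the acetyl-CoA carboxylase gene pod-2 (88.0, with 40.2 and 48.4), acs-20 (82.0), cyp-13A3 (78.4) and ugt-2 (69.8). The phosphatidylserine decarboxylase gene psd-1, with 3 peaks, is not on the list. Autophagy genes had 1 host among 30, epg-9, or 3.33% (0.0844 to 17.2), and 26.6 peaks per Mb (0.675 to 148). These intervals also held the values of all genes. The gene hlh-30, which regulates such genes, is counted with the transcription factors.

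Sequence around the summits differed from sequence further out. Of 18 motifs sought on both strands within 50 bp of the summit, the GAGA repeat GAGAGA was most frequent, in 87 windows or 32.3% (26.8 to 38.3), against 6.51% of equally wide windows centred 300 bp to either side. It was in 3.76% of windows tiled over all eligible autosomal intron, in 6.53% of windows at intronic candidates outside the optimal list, and in 21.1% of windows at autosomal 5′ end peaks (19.5 to 22.8). Autosomal intergenic peaks had it in 35.5% (31.2 to 40.1) and X intronic peaks in 20.5% (12.6 to 30.4), with intervals that overlap that of the autosomal intronic peaks. The EOR-1 site GAGACGCAG was in 25 windows, or 9.29% (6.10 to 13.4), against 0.372% of flanks, 0.454% of tiled intron, 1.01% of the other candidates, 7.71% of 5′ end peaks, 10.9% of intergenic peaks (8.24 to 14.1) and 3.41% of X intronic peaks (0.709 to 9.64). Matches to these motifs can overlap, since the EOR-1 site starts with GAGA, and 16 windows had both.

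The palindromic E-box CACGTG, the kind of site bound by basic helix-loop-helix leucine-zipper factors, was in 47 windows, or 17.5% (13.1 to 22.5). The flanks had it in 2.79%, tiled intron in 1.34% and the other candidates in 1.70%. At autosomal 5′ end peaks the share was 6.34% (5.40 to 7.39) and at autosomal intergenic peaks 9.85% (7.30 to 12.9), both below the intronic interval, while at X intronic peaks it was 17.0% (9.87 to 26.6). In the replicates' own strongest peaks under the location rule it was 14.7% in replicate 1 and 12.5% in replicate 2. The value of replicate 2 lay inside the interval of the intergenic peaks of the optimal list. The intergenic share was not counted in the replicates alone, so the difference between intronic and intergenic peaks was not checked there. The bases next to the E-box were most often those of ACACGTGA, at 14 sites, and CCACGTGA, at 12, read on either strand. The fully palindromic TCACGTGA was at 6. Reading either strand joins both orders of the outer bases for ACACGTGA and CCACGTGA but not for the palindrome. These counts therefore do not show a preference for certain outer bases.

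The nuclear receptor half-site AGGTCA was in 13 windows, or 4.83% (2.60 to 8.12), against 3.35% of flanks, 2.18% of tiled intron and 2.67% of the other candidates, of which the shares of flanks and of the other candidates lay within its interval. Intergenic peaks had it in 5.78% and X intronic peaks in 6.82%. The GATA factor site GATAAG was in 36 windows, or 13.4% (9.55 to 18.0), against 2.79% of flanks, 7.0% of 5′ end peaks, 14.3% of intergenic peaks (11.3 to 17.9) and 20.5% of X intronic peaks (12.6 to 30.4). Runs of 8 T or A were rarer at the summits, in 5.58% (3.15 to 9.03) against 13.4% of flanks and 20.0% of tiled intron. The other 12 motifs had shares from 0.372% to 6.32%. The share of G and C was higher in the window than in its flanks at 221 of 269 summits (82.2%), with medians of 42.6% and 35.1%, and the part of base composition in the motif shares was not tested.

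At least 1 of the GAGA repeat, the EOR-1 site, the E-box and the half-site was in 140 windows (52.0%), against 12.1% of flanks and 35.4% of all optimal peaks, and 129 windows had none. The first 3 had their highest shares in the strongest peaks, with overlapping intervals in each case, so a trend with signal was not shown. In the strongest 89, the next 90 and the weakest 90 by signal the GAGA repeat was in 40.4%, 26.7% and 30.0%. The EOR-1 site was in 15.7%, 5.56% and 6.67%, and the E-box in 23.6%, 15.6% and 13.3%. The half-site was in 1.12%, 7.78% and 5.56%. By intron length, the GAGA repeat was in 8.33% of peaks in introns up to 500 bp, 12.5% and 27.6% in the next 2 bands, 41.8% in introns of over 2000 and up to 5000 bp and 39.8% above that, while the E-box was in 13.9% of the shortest and 19.5% of the longest. Within 25 bp of the summit in place of 50, the shares were 18.2% for the GAGA repeat, 5.20% for the EOR-1 site and 10.4% for the E-box.

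**Figure D5:**
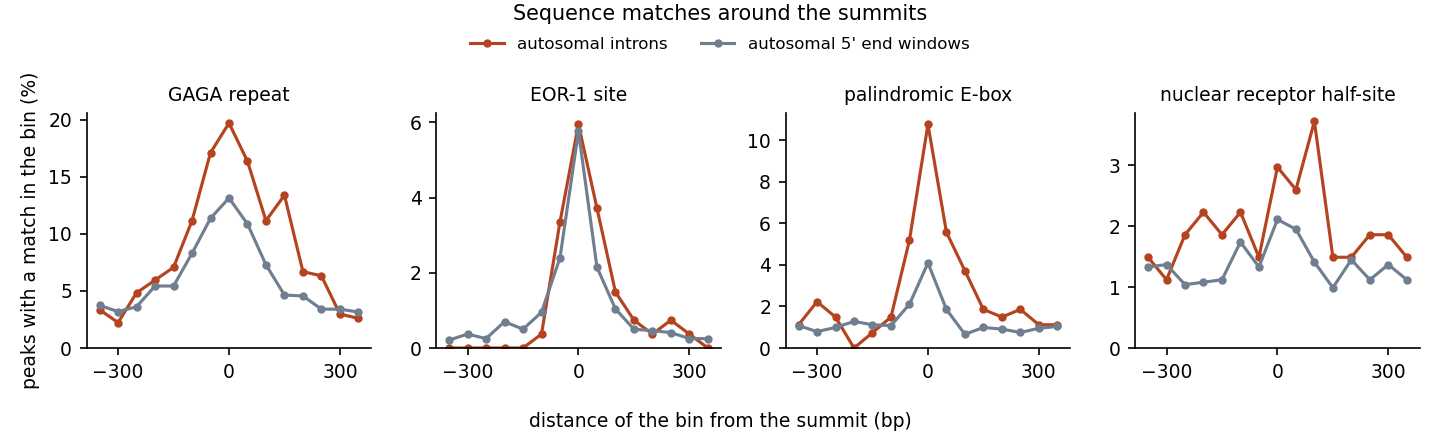
Share of peaks (%) with a match centred in each bin of 50 bp, by distance of the bin from the summit (bp), for the 269 autosomal intronic peaks and for the 2413 peaks in autosomal 5′ end windows; the vertical scale differs between panels. The GAGA repeat, EOR-1 site and E-box are most frequent in the bin at the summit, the E-box in 10.8% of intronic and 4.10% of window peaks, while the half-site has no such clear maximum.

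Among the 3 strongest carriers of each motif, the GAGA repeat was in the peaks of epg-9, pqn-41 (565.1) and T28F4.1, and the EOR-1 site in those of epg-9, Y111B2A.12 and Y43F8B.2. The E-box was in Y43F8B.2, in D2023.3 (316.0, with 163.1 in replicate 1 and 152.7 in replicate 2) and in aakg-1, a gene for a gamma subunit of the AMP-activated kinase (314.7, with 133.8 and 176.5). The half-site's strongest carriers were far weaker, at 142.4 in pkg-2, 135.9 in nhr-23 and 135.8 in the trehalase gene tre-1.

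The location rule and the list's threshold cut through a continuum. Just beyond 1000 bp upstream of a 5′ end lay peaks of Y48C3A.5 (1009 bp, signal 149.6), B0353.1 (1058 bp, 146.0) and C28H8.2 (1063 bp, 150.4), and just beyond 200 bp downstream those of glr-2 (207 bp from sls-2.18, 90.7), anc-1 (208 bp from ZK973.23, 90.6) and daf-14 (218 bp, 123.4). Just inside a window, and so left out, were intronic peaks of K11D2.4 (991 bp upstream, 312.1), F08G2.8 (199 bp downstream, 144.9) and hmit-1.3 (190 bp downstream, 70.0). The weakest included peaks, of daf-2, ugt-2 and eppl-1, had signals of 70.1, 69.8 and 69.7, and the strongest intronic candidates left out of the optimal list, in rbm-12, nhr-34 and T10G3.3, had 69.4, 69.4 and 68.9. With windows that reach 2000 bp upstream, 178 peaks met the rule in place of 269. Farthest from any 5′ end were the peaks of C35B1.2 (7050 bp, 166.8), daf-5 (6650 bp, 126.8) and pkg-2 (6632 bp, 255.3).

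In 5 of the peaks at least 50% of the 31-base words in the summit window occurred elsewhere in the genome, and how reads were placed in such sequence is not given in the sources used here. They lie in mod-5, col-72, rcor-1, brc-1 and glr-2, named because of this sequence and not by their signal. The window of glr-2 was 70.4% such words and lay 207 bp from the spliced leader gene sls-2.18, and without it no listed transmitter receptor gene would be a host.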

How the data were processed

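The 2 samples are ChIP-seq replicates from whole L1 larvae, grouped and numbered by the labels. The authors deposited peak lists: per the deposited file listings, candidate peaks and background for each replicate and for both pooled (27854, 26708 and 30000 peaks), and an optimal list (4133 peaks) thresholded on the irreproducible discovery rate. The signal of a peak is the authors' own score, deposited without a stated scale. The q-value was deposited as −log10 by the authors and had 1 value, 3.99, in the whole optimal list, and ranks do not use it. The aligner and peak caller were not given in the sources used here. Depth per sample is unknown, so it sets no printed interval.

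Coordinates are 1-based in ce11, and every peak lay within the chromosome lengths of the reference WBcel235. Summits are those of the authors' peak lists, and 5′ ends, exons and introns came from Ensembl release 115. Eligible intron is the set of autosomal bases that meet the location rule. The length of an intron is that of the shortest intron of a coding transcript around the summit, and an intron counts as first when it is first in any such transcript. A replicate peak was matched as the strongest one overlapping by 1 bp or more. Motifs (18) were sought on both strands in windows of 101 bp: the 6 motifs given above (GAGA repeat, EOR-1 site, palindromic E-box, half-site, GATA site and run of T or A), the E-boxes of MyoD type (CAGCTG) and Snail type (CAGGTG), the half-site variants AAGTCA and also AGTTCA, and sites of forkhead (TGTTTAC), AP-1 (TGACTCA), cyclic AMP response (TGACGTCA), homeodomain (TAATTA), POU octamer (ATTTGCAT), E2F (GGCGGGAA), GC box (GGGCGG) and CA repeat (CACACACA) type. The tiled windows lay side by side over eligible intron (202390 windows). Repeated sequence was judged by words of 31 bases. Intervals are exact 95% Clopper-Pearson for shares, Poisson for densities and binomial order statistics for medians. A limit beside a count of 0 is 3 counts. Scripts ran in Python 3.11.15 with numpy 2.4.6, pandas 2.3.3, scipy 1.17.1 and matplotlib 3.10.9, and were checked on simulated data.

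The peaks, the 10 gene lists (by family symbol or WormBase gene ID) and the motifs were chosen with earlier results of these data known. Named genes are those of the 15 strongest peaks, hosts of 3 or more, the 3 strongest carriers of each main motif, the 3 peaks on either side of each limit, the 3 farthest from a 5′ end, epg-9 and up to 4 hosts of highest signal per list. Further hosts of the lists, the hosts of repeated sequence and the 3 peaks weak in both replicates fall outside this rule and were chosen after their values were seen. Alternatives were other windows, each replicate alone, the stronger 2066 peaks of the list, other motif windows and flanks, and 2 added after seeing the data, as were the densities by intron length.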

Additional observations from a re-analysis of the deposited data

How the results depend on the processing

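No paired analysis was possible because all samples form 1 group. Leaving out a replicate means using the 4133 strongest peaks of the other, and gave 278 to 295 peaks, 8.45% to 9.03% of autosomal peaks, 13.6 to 14.4 per Mb, median introns of 3511 to 3573 bp, 53.6% to 53.9% in first introns, and shares of 28.8% to 30.2% for the GAGA repeat, 7.55% to 8.14% for the EOR-1 site, 12.5% to 14.7% for the E-box and 4.41% to 4.68% for the half-site. Introns over 5000 bp then had 50.5 to 51.8 per Mb and introns up to 500 bp 6.21 to 6.72. The share of autosomal peaks that met the rule was 10.6% with windows reaching 500 bp upstream, 5.47% with 2000 bp (178 peaks), 7.25% with 500 bp downstream and 11.6% with 5′ ends of coding genes only. The stronger 2066 peaks of the optimal list held 114 of the peaks, 6.88% of its autosomal peaks, at 5.58 per Mb (22.6 in introns over 5000 bp and 2.35 in those up to 500 bp), with 14.0% holding the EOR-1 site. With 25 bp either side of the summit the shares were 18.2% (GAGA), 5.20% (EOR-1) and 10.4% (E-box), and with 100 bp they were 41.6% (GAGA), 23.0% (E-box) and 8.55% (half-site). Introns that were first in every transcript held 36.4%. Of 2 alternatives added after seeing the data, leaving out genes with 3 or more peaks gave 6.36%, 9.93 per Mb, a median intron of 2607 bp and 27.0 per Mb in introns over 5000 bp, and leaving out repeated sequence left 264 peaks. A narrower motif window lowers the motif shares by construction, and a shorter list or fewer genes lowers the number and density of peaks. Causes of the other changes were not tested. In all, 23 of 81 alternative values moved, beyond their interval or, for the number of peaks, by over 1.5 times; by that measure numbers from 203 to 377 did not move. Depth, an untagged control and tissue of origin limit what the peaks show, and weak peaks near the threshold of 69.4 depend on the calling.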
